A study of Gallus gallus with 12 samples.

Results

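Gene expression in the chick chorioallantoic membrane (CAM) at embryonic day 10 (E10) was set against that at embryonic day 7 (E7) over all probe sets of an Affymetrix chicken array, which used 6 of the 12 arrays of the series. There were 3 CAMs at E10 and 3 CAMs at E7. Each array held the total RNA of the membrane of 1 chick embryo, and 3 arrays each at E5 and E14 entered the same statistical model and are given as levels. No treatment, allele or strain difference between the stages is given, all eggs were kept under the same incubation conditions, and the labels do not give the sex of the embryos. Nothing but age therefore distinguishes the groups by label, and each stage was sampled at a single time with 3 embryos.

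The CAM forms where the outer wall of the allantois meets and fuses with the chorion. It is made of a chorionic epithelium that faces the shell, a mesenchyme that carries the vessels, and an allantoic epithelium that lines the sac of stored waste. The membrane is the breathing organ of the embryo, and later it also takes calcium from the shell and salt from the allantoic fluid. Between E7 and E10 it spreads under the shell, and its capillary bed becomes denser and moves close to the chorionic surface.

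Signals are in the arbitrary units to which each array had been scaled, and differences are log2 of the signal at E10 minus log2 of the signal at E7, given with their standard error (SE). A probe set is said to have risen or fallen at E10 where limma's adjusted p was under 0.05 and the log2 difference over 1 in size. A whole membrane was measured, so that fewer cells of a type and less RNA per cell cannot be told apart. Markers of the expected tissues were present in every E10 and E7 array, among them the endothelial cadherin CDH5 (1585 to 2086 at E10 and 1338 to 1993 at E7), the epithelial adhesion molecule EPCAM (3659 to 3834 at E10 and 2566 to 4408 at E7) and the fibrillar collagen COL1A1 (5214 to 6064 at E10 and 5207 to 5641 at E7). Of the muscle regulators, MYOD1 reached at most 22.2 and MYOG at most 37.3 in these 6 arrays, and albumin (ALB) reached at most 25.1. Other markers of muscle and of yolk sac or liver were brighter. The muscle actin ACTA1 had 121 to 423 at E10 and 230 to 558 at E7, and the apolipoprotein APOA1 had 462 to 724 at E10 and 183 to 882 at E7. E7 replicate 3 stood apart from the other arrays. Its median signal over all probe sets was 48.6, against 24.4 to 33.6 in the other 11 arrays, and its mean correlation with the other E7 arrays was 0.83. Its ratio of 3' to 5' actin signal was 2.76, against 1.51 to 1.66 at E10 and 1.19 and 1.66 in the other E7 arrays. By this ratio it did not stand apart from the E14 arrays, which had 3.43, 2.21 and 2.86. HINTW, a gene of the female W chromosome, had signals of 3830, 5390 and 4640 at E10 and of 11.7, 7630 and 110 at E7, so that all E10 arrays and 1 of 3 E7 arrays had a high W-linked signal.

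At E10, 487 probe sets rose (2.75% of 17726 tested) and 119 fell (0.671%). The calls that rose had a median log2 difference of 1.53 and those that fell of -1.46, and the median over all probe sets tested was 0.06. Every E10 array lay above every E7 array in 16.5% of all probe sets tested, and below in 9.77%. Among the calls, 482 rises and 118 falls had no such overlap and a ratio of means over 2. Lack of overlap therefore adds little to a call. With 1 symbol in the annotation, 344 genes rose in at least 1 probe set and 95 fell. Without E7 replicate 3 the counts were 583 higher and 182 lower. They depended more on the E10 arrays, with 210 higher and 56 lower without E10 replicate 1. There were 318 and 72 when E10 replicate 2 was left out, and 213 and 48 when E10 replicate 3 was. Rises made up 80.4% of the calls on the deposited scale and 67% after quantile normalization, which gave 402 higher and 198 lower.

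**Figure D1:**
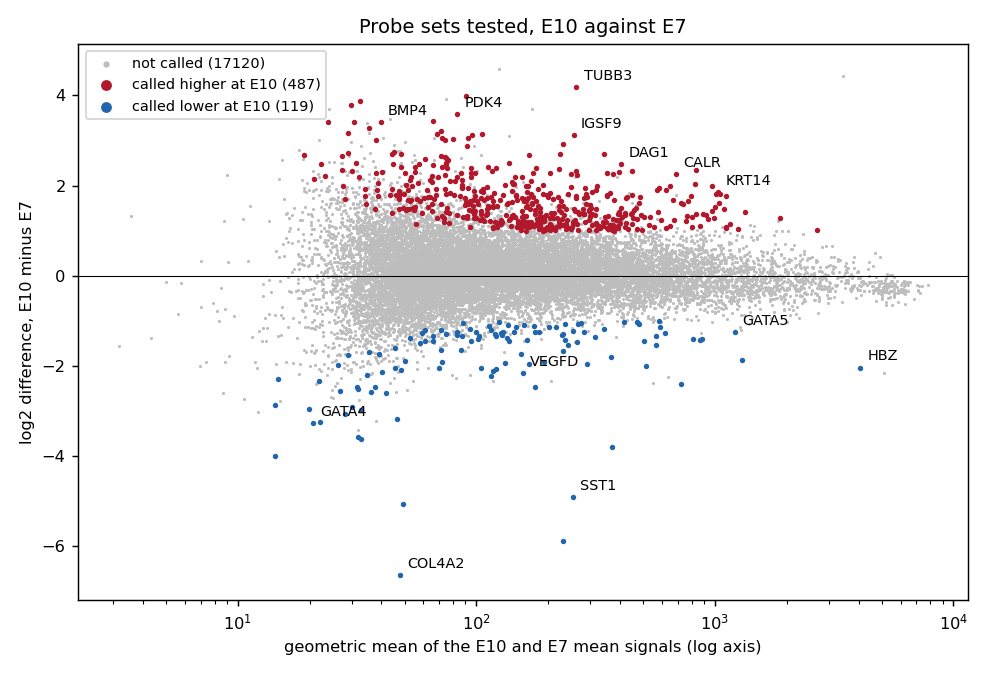
Log2 difference between E10 and E7 of each probe set tested (vertical axis) against the geometric mean of its mean signals at E10 and E7 (horizontal log axis). Of the points, 487 were called higher at E10 (red) and 119 lower (blue), and the labelled genes are described in the text.

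The largest rise among the named genes was that of TUBB3, which encodes a tubulin used as a marker of neurons. Its signals were 1222, 851 and 1246 at E10 and 39.4, 70.6 and 76.5 at E7, a ratio of the means of 17.8 (log2 difference 4.19, SE 0.32, limma adjusted p = 2.93e-05). IGSF9, a cell surface protein of the immunoglobulin superfamily, had 695, 843 and 670 at E10 and 102, 53.4 and 110 at E7 (3.11, SE 0.27, adjusted p = 8.66e-05). In both genes the lowest E10 array was several times above the highest E7 array. PDK4, a kinase that shuts off pyruvate dehydrogenase and so spares glucose, had 250, 281 and 337 at E10 and 23.6, 25.4 and 22.9 at E7 (3.58, SE 0.68, adjusted p = 0.00848). BMP4, a secreted signal of the bone morphogenetic protein family, had 101, 130 and 114 at E10 and 11.5, 4.39 and 25.2 at E7 (3.40, SE 0.53, adjusted p = 0.00291). The E7 values of BMP4 lie mostly under a signal of 20, and with such signals set to 20 its difference was 2.41. None of these 4 genes lost its call when any single E10 or E7 array was left out.

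The other genes with rises of this size were a mixed group. CBFA2T3, a transcriptional corepressor of blood and vessel cells, had 160, 345 and 303 at E10 and 44.5, 45.3 and 12.4 at E7 (3.13, adjusted p = 0.00161). MMP15, a membrane-bound metalloproteinase, had 267, 102 and 279 at E10 and 20.5, 37.5 and 12.6 at E7 (3.20, adjusted p = 0.00276), while its brighter probe set had 843, 468 and 578 at E10 and 230, 227 and 340 at E7 and was not called (1.23, adjusted p = 0.0660). SLC5A8, which carries short fatty acids and lactate into cells with sodium, had 114, 63.3 and 153 at E10 and 11.6, 16.1 and 6.56 at E7 (3.27, adjusted p = 0.00388). E10 and E7 arrays did not overlap in any of these probe sets, which was a condition for being chosen among the largest differences. The calls of these 3 genes held with each array left out. SLC36A1, an amino acid transporter driven by protons, rose as well (3.14, adjusted p = 0.0441), as did CA3B, a carbonic anhydrase (3.05, adjusted p = 0.00964). CA3B had 294, 151 and 298 at E10 and 19.8, 18.2 and 64.4 at E7, and a mean of 29.8 at E14. The call of SLC36A1 was lost without E7 replicate 1 or 2 or without any E10 array (adjusted p between 0.0973 and 0.136), and that of CA3B without E10 replicate 1 (adjusted p = 0.0561) or 3 (adjusted p = 0.0587). Another probe set each of CBFA2T3, SLC5A8 and SLC36A1 was not called.

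The largest fall was measured by 1 probe set of COL4A2, a collagen IV chain of basement membranes, and it was not shared by the gene's other probe sets. This probe set had 1.71, 6.45 and 7.35 at E10 and 597, 422 and 320 at E7 (log2 difference -6.64, SE 1.18, adjusted p = 0.00612). Where signals below 20 were raised to 20, the difference was -4.43. The 2 brightest COL4A2 probe sets had 2536, 2094 and 2805 at E10 against 2251, 1924 and 2100 at E7 (0.24, adjusted p = 0.638), and 2218, 1813 and 2638 at E10 against 1572, 1700 and 1542 at E7 (0.46, adjusted p = 0.314). Another rose, with 272, 192 and 472 at E10 and 135, 41.8 and 71.5 at E7 (1.98, adjusted p = 0.0412), a call lost without E7 replicate 2 or 3 or without any E10 array (adjusted p between 0.0522 and 0.179). No direction can therefore be given for COL4A2 as a gene, and which stretch of the transcript each probe set reads was not examined.

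SST1, which encodes the peptide hormone somatostatin, fell in both of its probe sets. The brighter one had 9.39, 62.3 and 87.6 at E10 and 1595, 1415 and 630 at E7 (-4.92, SE 0.65, adjusted p = 0.00108), and the mean at E14 was 14.8. CHODL, a membrane lectin, had 13.8, 10.9 and 20.6 at E10 and 141, 200 and 84.1 at E7 (-3.19, adjusted p = 0.0106). TUBAL3, an α-tubulin, had 32.9, 92.7 and 98.0 at E10 and 388, 662 and 201 at E7 (-2.48, adjusted p = 0.00649). OLFM1, a secreted glycoprotein of the olfactomedin family, had 73.3, 56.9 and 32.8 at E10 and 221, 276 and 228 at E7 (-2.22, adjusted p = 0.00596). All of these fell without overlap between the stages, which was a condition for being chosen among the largest differences. Their calls held with each array left out, except in the dimmer SST1 probe set (-5.06, adjusted p = 0.0242). That call was lost without E7 replicate 1 (adjusted p = 0.0742) or 2 (adjusted p = 0.0671). Another probe set each of CHODL and OLFM1 was not called. The remaining genes of the 12 largest falls were the muscle myosin light chains MYL1 and MYL4, the lymphatic growth factor VEGFD, the mitotic genes CENPE and ASPM, and RFK and DHX29 of the Z chromosome. DHX29, a helicase of translation initiation, fell in 1 probe set (-2.04, adjusted p = 0.0229), a call lost when any array other than E7 replicate 1 was left out (adjusted p between 0.0523 and 0.0823), and was at -0.07 (adjusted p = 0.936) in its brighter one. ASPM, which organizes spindle poles, had 29.5, 21.1 and 18 at E10 and 76.2, 79.5 and 147 at E7 (-2.10, adjusted p = 0.0216), a call lost without E7 replicate 3 (adjusted p = 0.0507), E10 replicate 2 (adjusted p = 0.0673) or E10 replicate 3 (adjusted p = 0.0900).

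**Figure D2:**
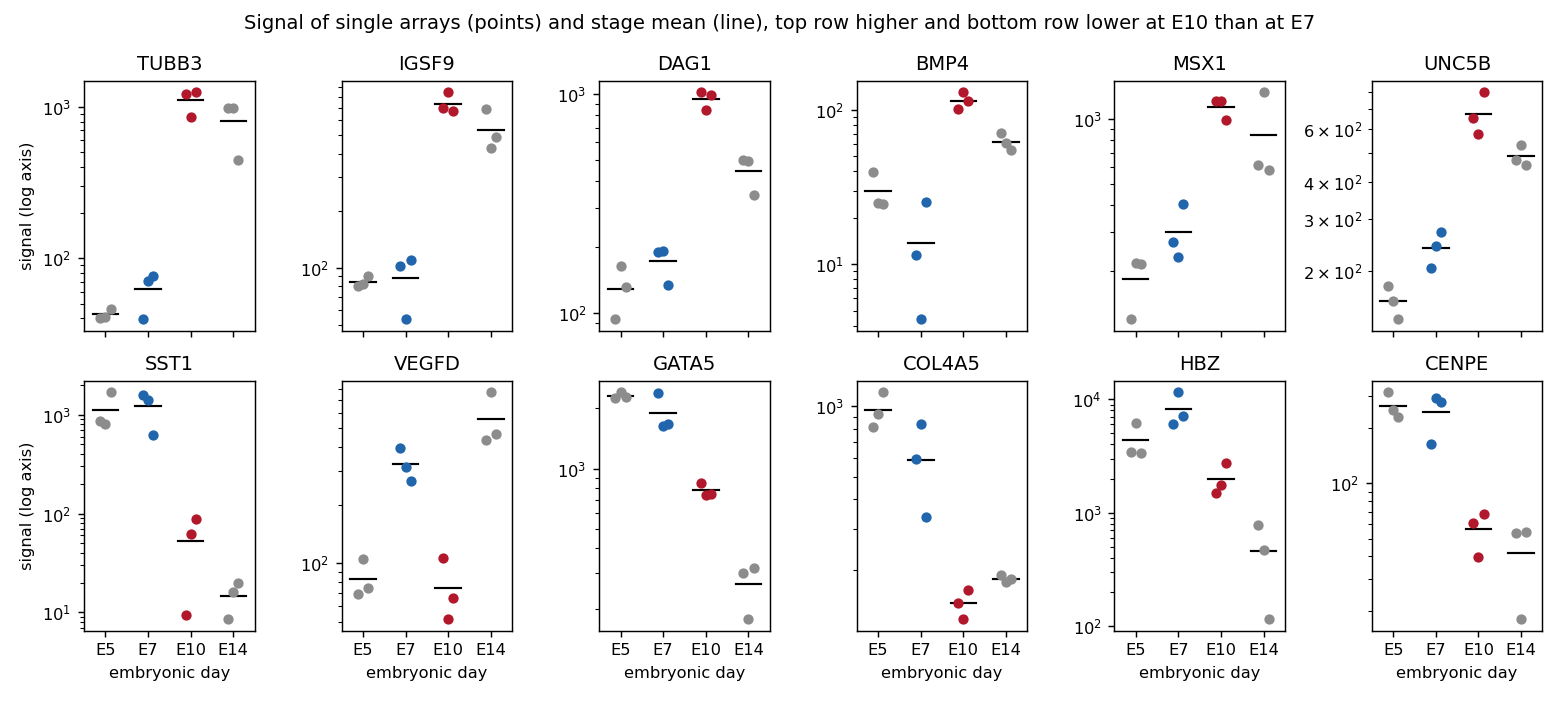
Signals of single arrays (points, 3 per stage) and the stage mean (line) on a log axis for 6 genes higher (top row) and 6 lower (bottom row) at E10 than at E7, with E5 and E14 in grey. TUBB3 and IGSF9 had E14 means of 804 and 535, above those of E7, DAG1 and BMP4 were highest at E10, and VEGFD, low at E10, was high again at E14.

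Gene lists were read through the brightest probe set of each gene, for which 2.91% of 9013 genes rose and 0.71% fell, with a median log2 difference of 0.04. Of these 9013 genes, 1971 had an unadjusted limma p under 0.05 and 4240 a difference under 0. The lists were written with earlier results known and hold genes that the study had selected as rising on these arrays. A list's share of rises is therefore shaped in part by that selection. The first group were the signals that pattern tissues. In BMP signaling, where secreted ligands act through receptors and SMAD proteins on targets such as the ID genes, 2 of 23 genes rose and 1 fell, with a median of 0.35. BMP4 is the ligand that rose. ID3, an inhibitor of differentiation and a target of the pathway, had 2887, 1783 and 1544 at E10 and 473, 725 and 585 at E7 (1.77, SE 0.33, adjusted p = 0.0084). BMP5, another ligand, fell to 25.2, 27.2 and 46.4 at E10, against 61.3, 88.0 and 104 at E7 (-1.38, adjusted p = 0.0392). The rest of the pathway did not pass, with BMP2 at 0.40, BMP7 at 0.12 and ID1 at -0.09, and ID2 at -0.74. One probe set of the receptor ACVR1 (listed as ATVR1) had 87.6, 64.8 and 90.9 at E10 and 35.7, 9.81 and 27.4 at E7 (1.92, adjusted p = 0.0402), while its brighter one had 1104, 1053 and 1008 at E10 and 995, 1128 and 814 at E7 (0.12, adjusted p = 0.742). The call of ID3 was lost without E10 replicate 1 (adjusted p = 0.0511), those of BMP5 without E7 replicate 2 or 3 or E10 replicate 1 or 2 (adjusted p between 0.0665 and 0.144), and that of the ACVR1 probe set without E7 replicate 2 or any E10 array (adjusted p between 0.0773 and 0.144).

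Of 10 genes of hedgehog signaling 1 rose and 1 fell, with a median of -0.28. SMO, the membrane protein that passes the signal into the cell, had 316, 312 and 278 at E10 and 125, 99.5 and 115 at E7 (1.42, SE 0.21, adjusted p = 0.00191). CDON, a co-receptor, had 46, 57.5 and 24.7 at E10 and 115, 90.0 and 102 at E7 (-1.34, adjusted p = 0.0465). HHIP, a decoy receptor and a known target of the pathway, had 32.4, 42.6 and 45.5 at E10 and 130, 148 and 99.0 at E7 in 1 probe set (-1.64, adjusted p = 0.00596), and 124, 68.2 and 146 at E10 against 249, 481 and 192 at E7 in its brighter one, which was not called (-1.41, adjusted p = 0.0871). The receptor PTCH1 was at -0.39 (adjusted p = 0.415). The call of CDON was lost when any E7 array, E10 replicate 1 or E10 replicate 3 was left out (adjusted p between 0.0614 and 0.189).

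In Wnt signaling 2 of 33 genes rose and none fell, with a median of 0.04. The ligand WNT4 had 165, 109 and 74.8 at E10 and 21, 24.8 and 27.4 at E7 (2.18, adjusted p = 0.0143), and the ligand WNT6 had 210, 286 and 171 at E10 and 77.5, 78.2 and 112 at E7 (1.31, adjusted p = 0.0245). In FGF signaling 3 of 14 genes rose, with a median of -0.02. FGFBP1, a carrier that releases fibroblast growth factors from the matrix, had 747, 1068 and 666 at E10 and 335, 128 and 106 at E7 (2.29, SE 0.44, adjusted p = 0.00891). FGF12, an FGF homologue that stays inside the cell, and SPRED2, an inhibitor of the pathway, were the others (2.13 and 1.62). The receptor FGFR2 was read by 5 probe sets between -0.41 and 1.04, none of them called. The Notch receptor NOTCH2 was the only 1 of 13 genes of its pathway that rose (1.09, adjusted p = 0.0237), and TGFB1 the only 1 of 17 of the TGF-β and activin list (2.42, adjusted p = 0.0135). No gene of either list fell. Without E10 replicate 1 the calls of WNT4 (adjusted p = 0.0980), WNT6 (adjusted p = 0.0806), FGF12 (adjusted p = 0.0660), NOTCH2 (adjusted p = 0.0776) and TGFB1 (adjusted p = 0.0568) were lost. Without E10 replicate 2 the calls of WNT4 (0.0549), WNT6 (0.1), FGF12 (0.0866) and SPRED2 (0.0943) were lost, and without E10 replicate 3 those of FGF12 (0.0733), SPRED2 (0.105), NOTCH2 (0.117) and TGFB1 (0.0655). Leaving out E7 replicate 1 or 2 ended the calls of WNT6 (0.0658 and 0.0700) and NOTCH2 (0.0571 and 0.0509).

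Retinoic acid is made from vitamin A in tissues and sets regional identity, and 3 of 14 genes of its metabolism and response rose, with a median of 0.49. DHRS3, a reductase that returns retinal to retinol, had 311, 292 and 250 at E10 and 67.4, 92.2 and 108 at E7 (1.70, SE 0.25, adjusted p = 0.00178). RARRES1, named for its response to retinoic acid, had 1518, 901 and 1610 at E10 and 632, 499 and 416 at E7 (1.36, adjusted p = 0.00537). RDH10, the dehydrogenase that makes retinal, was near the limit in its brighter probe set, at 269, 254 and 301 at E10 and 125, 140 and 142 at E7 (1.01, adjusted p = 0.0113), and fell short of a log2 difference of 1 without E7 replicate 1 (0.95) and of the threshold without E10 replicate 3 (adjusted p = 0.0591). E10 and E7 arrays did not overlap for these 3 genes, as for nearly all called probe sets.

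Among 27 transcription factors that pattern mesenchyme or endoderm, 1 rose and 4 fell, with a median of 0.18, so that the share that fell was 14.8% against 0.71% over all genes. This share rests on few genes. The falls were 2 with only the 6 arrays of E10 and E7, 2 with a stricter filter and 2 without E10 replicate 1. They were 3 or 4 with any other array left out. In 4 genes of the list, GATA5 among them, the probe sets differed in call. MSX1, a homeobox factor downstream of BMP signals in other tissues, had 1210, 1210 and 987 at E10 and 270, 231 and 406 at E7 (1.94, SE 0.32, adjusted p = 0.00432). GATA5, a zinc finger factor of endoderm and heart, fell to 849, 740 and 751 at E10, against 2372, 1624 and 1674 at E7 (-1.26, SE 0.23, adjusted p = 0.00667), and its mean at E14 was 266. GATA4, its relative, was dim, at 3.75, 15.2 and 3.27 at E10 and 49.7, 39.7 and 83.5 at E7 (-3.27, adjusted p = 0.0093, or -1.46 where signals below 20 were raised to 20). SNAI1, a repressor of epithelial genes, had 189, 243 and 247 at E10 and 657, 480 and 429 at E7 (-1.19, adjusted p = 0.0130), and PRRX1, a homeobox factor of mesenchyme, fell as well (-2.59, adjusted p = 0.0334). SNAI1 lost its call without E10 replicate 1 (adjusted p = 0.0726), and PRRX1 without E7 replicate 2 or 3 or any E10 array (adjusted p between 0.0676 and 0.102). Against the E7 array with a high HINTW signal alone, GATA5 was at -1.06, GATA4 at -2.80, SNAI1 at -1.09 and PRRX1 at -2.39. A single E7 array gives no spread of its own, so no call is read from it here. Of 19 HOX and related genes, which mark position along the body, HOXA3 alone rose, with 284, 396 and 265 at E10 and 120, 119 and 127 at E7 (1.34, SE 0.25, adjusted p = 0.00865), and none fell.

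The matrix and its receptors were the next group. DAG1, dystroglycan, which ties cells to laminin, rose in all 3 of its probe sets. The brightest had 978, 930 and 1079 at E10 and 213, 248 and 148 at E7 (2.33, SE 0.25, adjusted p = 0.000327), the others 2.48 and 2.92, and the mean at E14 was 404. HSPG2, perlecan, a proteoglycan of basement membranes, had 489, 293 and 726 at E10 and 147, 90.1 and 58.2 at E7 in 1 probe set (2.36, adjusted p = 0.00273), while its brightest probe set was not called (1.27, adjusted p = 0.0522). COL4A5, a collagen IV chain found in a subset of basement membranes, fell to 145, 123 and 164 at E10, against 591, 839 and 337 at E7 (-1.95, SE 0.28, adjusted p = 0.00161). The 3 calls held with each array left out, and the stages did not overlap in those probe sets. Another COL4A5 probe set was not called, and passed only under some alternatives, such as without E7 replicate 3 (-1.14, adjusted p = 0.023). Of 23 basement membrane genes 1 rose and 1 fell, with a median of 0.17.

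In the interstitial matrix 2 of 37 genes rose and none fell, with a median of 0.30. EFEMP1, a fibulin of elastic fibers, had 232, 116 and 288 at E10 and 59, 14.3 and 16.6 at E7 (3.04, SE 0.53, adjusted p = 0.00537). CLEC3B, tetranectin, which binds plasminogen, had 253, 87.6 and 268 at E10 and 30.3, 36.9 and 9.17 at E7 (3.06, adjusted p = 0.0167). The abundant fibrillar collagens had values near 0, with COL1A1 at 0.01 (adjusted p = 0.986), COL1A2 at 0.41 (adjusted p = 0.387) and COL3A1 at -0.12 (adjusted p = 0.764). COL8A1, a short-chain collagen of vessel walls, was called in a dim probe set (3.88, adjusted p = 0.0422), where E7 values were 13.1, 1.5 and 11.9, and the call was lost with signals under 20 set to 20 (2.18, adjusted p = 0.0768). Its brighter probe set had 179, 144 and 344 at E10 and 32.7, 7.81 and 89.5 at E7 (2.87, adjusted p = 0.0565), and another had -0.11. The dim probe set of COL8A1 also lost its call without E7 replicate 2 or any E10 array (adjusted p between 0.0767 and 0.192), and CLEC3B without E10 replicate 1 (adjusted p = 0.0812) or 3 (adjusted p = 0.0878). None of 28 matrix proteases and inhibitors was called by limma in its brightest probe set. An unadjusted p under 0.05 was found for 7 of them, against 1971 of 9013 over all genes.

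Integrins and focal adhesion proteins link the matrix to actin. In a list of these and related genes, 6 of 35 (17.1%) rose and none fell, with a median of 0.37. Of those that rose, MYO10, ITGA3 and PTRF had been selected by the study as rising on these arrays, so the share is not independent of that selection. MYO10, a motor of filopodia, averaged 641 ± 65.5 at E10 and 193 ± 46.6 at E7 (SD, n = 3 each; log2 difference 1.76, SE 0.22, adjusted p = 0.000763). ITGA3, the α-chain of a laminin receptor, had 324, 278 and 338 at E10 and 75.8, 115 and 111 at E7 (1.66, SE 0.24, adjusted p = 0.00161). ITGB4, the β-chain of the hemidesmosome integrin, had 279, 229 and 432 at E10 and 114, 81.0 and 120 at E7 (1.55, SE 0.30, adjusted p = 0.00991). ACTN4, an actin crosslinker, was at 2.05 (adjusted p = 0.00905), PTRF, a coat protein of caveolae, at 1.2 (adjusted p = 0.0263), and TLN1, talin, which is on the Z chromosome, at 1.16 (adjusted p = 0.00905). The calls of MYO10 and ITGA3 held with each array left out. Without E10 replicate 3 only 2 genes of the list were called, and the calls of ITGB4 (adjusted p = 0.0602), ACTN4 (0.0573), PTRF (0.109) and TLN1 (0.0566) were lost. Without E10 replicate 1 those of ACTN4 (0.0540) and PTRF (0.116) were lost, without E7 replicate 3 that of PTRF (0.0560), and without E7 replicate 2 TLN1 had a log2 difference of 0.95. PTPRF, a receptor phosphatase at cell contacts, was called in 1 of 3 probe sets (1.55, adjusted p = 0.0152), and its brightest was at 0.20 (adjusted p = 0.595). That PTPRF call was lost without E10 replicate 3 (adjusted p = 0.0816).

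Among cadherins and tight or gap junction genes, which hold epithelia together and seal them, 4 of 30 (13.3%) rose and none fell, with a median of 0.61. CDH3, P-cadherin, had 478, 537 and 533 at E10 and 195, 174 and 152 at E7 (1.57, SE 0.23, adjusted p = 0.00161). CLDN3, a claudin of tight junctions, had 709, 556 and 833 at E10 and 403, 266 and 219 at E7 (1.27, SE 0.24, adjusted p = 0.00808). OCLN, occludin, was at 2.18 (adjusted p = 0.0299) and JAM2, a junctional adhesion molecule, at 1.76 (adjusted p = 0.0434). Another JAM2 probe set was not called. CDH1, E-cadherin, had 1662, 1581 and 1792 at E10 and 758, 1019 and 944 at E7, which did not overlap, and stayed under the fold required (0.90, adjusted p = 0.0139). The list kept 1 call without E10 replicate 3, CDH3, whereas CLDN3 was then at an adjusted p of 0.0503. The calls of OCLN and JAM2 were each lost in 5 of 6 ways of leaving out an array (adjusted p between 0.0502 and 0.123 for OCLN, and between 0.0709 and 0.146 for JAM2).

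In keratins and barrier genes 2 of 26 rose and none fell, with a median of 0.23. KRT14, a keratin of basal epithelial cells, had 2506, 2222 and 1131 at E10 and 382, 838 and 416 at E7 (1.85, SE 0.35, adjusted p = 0.00891), and its mean at E14 was 5068. KLF5, a transcription factor of growing epithelia, had 276, 391 and 255 at E10 and 145, 88.5 and 50 at E7 (1.81, adjusted p = 0.0151). Another KLF5 probe set was not called. The measured epithelial markers EPCAM, CDH1 and ESRP1 summed to 5275 to 5662 at E10 and 3331 to 5441 at E7, so the ranges overlapped, and whether more epithelial RNA had a part in these values was not tested. Of 38 genes of ion, acid and calcium transport 2 rose and none fell, with a median of 0.41. SCNN1B, the β-chain of the epithelial sodium channel, had 475, 208 and 573 at E10 and 101, 62.6 and 62.5 at E7 (2.39, SE 0.41, adjusted p = 0.00526), and VDR, the vitamin D receptor, had 315, 177 and 296 at E10 and 39.7, 68.2 and 91.0 at E7 (2.02, SE 0.33, adjusted p = 0.00388). The calls of SCNN1B and VDR held with each array left out. The carbonic anhydrase CA2, an enzyme of acid secretion, was at -0.11 (adjusted p = 0.939). Without E10 replicate 1 KRT14 (adjusted p = 0.0539) and KLF5 (0.0511) lost their calls, and KLF5 also without E10 replicate 2 (0.0675).

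Of 31 endothelial genes 5 rose (16.1%) and none fell, with a median of 0.47, while the 6 defining markers did not pass. The 5 that rose had all been reported by the study as rising from E7 to E10 on these arrays. Their share is therefore not an independent result. PECAM1 was at -0.37 (adjusted p = 0.566), CDH5 at 0.12 (0.802), KDR, the main receptor for VEGF, at 0.41 (0.573), VWF at 0.30 (0.432), TEK at 0.23 (0.663) and TIE1 at 0.23 (0.780). Their summed signal was 3559 to 5210 at E10 and 3426 to 4616 at E7. UNC5B, a netrin receptor of vessel tips and arteries, had 655, 577 and 796 at E10 and 206, 244 and 271 at E7 (1.49, SE 0.20, adjusted p = 0.00114). SOX7, a transcription factor of vessel and blood progenitors, had 454, 535 and 549 at E10 and 256, 201 and 215 at E7 (1.2, SE 0.21, adjusted p = 0.00537). LDB2, a cofactor of LIM domain proteins, had 453, 698 and 774 at E10 and 289, 294 and 189 at E7 (1.31, SE 0.25, adjusted p = 0.00865). SHE, an adaptor protein, and MMRN1, a multimerin, were at 1.29 (adjusted p = 0.0155) and 2.51 (adjusted p = 0.0262). The stages did not overlap for any of the 5 genes, as for nearly all called probe sets. The calls of SOX7 and of this UNC5B probe set held with each array left out. A dimmer UNC5B probe set (1.24, adjusted p = 0.0417) lost its call without E7 replicate 1 (0.109) or 2 (0.0782), or without E10 replicate 1 (0.152) or 3 (0.145). Of the list, 2 genes were called without E10 replicate 3, with adjusted p of 0.0540 for LDB2, 0.0861 for SHE and 0.113 for MMRN1. Without E7 replicate 2 the calls of SHE (0.0585) and MMRN1 (0.0592) were lost, and that of MMRN1 also without E10 replicate 1 (0.0833) or 2 (0.0638). EPAS1, a hypoxia-inducible factor of endothelium, had 3438, 3633 and 2579 at E10 and 2701, 2942 and 2581 at E7 in its brightest probe set (0.22, adjusted p = 0.537). It rose in another (1.41, adjusted p = 0.0412), a call lost when any array other than E7 replicate 2 was left out (adjusted p between 0.0675 and 0.119). The paper also reported a rise of EPAS1 from E7 to E10 by quantitative PCR on pooled CAMs. TSPAN7 (1.02, adjusted p = 0.0616), PRCP (1.16, adjusted p = 0.0761) and ENC1 (0.77, adjusted p = 0.137) did not pass limma in any probe set. The study had selected them on these arrays by another test, SAM, which was not run here, so the outcomes are not directly comparable.

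Of 39 vessel growth ligands and receptors 1 rose and 1 fell. VEGFD, a growth factor of lymphatic and blood vessels, fell to 107, 51.3 and 66.5 at E10, against 394, 316 and 267 at E7 (-2.17, SE 0.31, adjusted p = 0.00161), and the call held with each array left out. Its mean was 83.3 at E5 and 556 at E14, so that the 4 stages were low, high, low and high. VEGFA was at 0.15 (adjusted p = 0.881) and VEGFC at -0.04 (adjusted p = 0.958). CCN3, a matricellular protein, had 913, 334 and 857 at E10 and 206, 240 and 163 at E7 (1.67, adjusted p = 0.0149), a call lost without E10 replicate 1 (adjusted p = 0.0828) or 3 (adjusted p = 0.0839). In the list of 12 lymphatic genes, VEGFD fell and 2 rose. TFPI2, a protease inhibitor of the matrix, had 906, 961 and 1471 at E10 and 374, 232 and 279 at E7 (1.91, SE 0.29, adjusted p = 0.00252), and RELN, reelin, a secreted guidance protein, had 603, 443 and 857 at E10 and 188, 225 and 321 at E7 (1.36, adjusted p = 0.0136). RELN lost its call without E10 replicate 1 (adjusted p = 0.0548) or 3 (adjusted p = 0.0778). The defining lymphatic markers PROX1 (0.61), LYVE1 (-0.72) and FLT4 (0.67) were not called. None of 20 mural and smooth muscle genes was called by limma, with a median of 0.15. An unadjusted p under 0.05 was found for 2, against 1971 of 9013 over all genes. Of 31 guidance cues and receptors 3 rose, which were UNC5B, RELN and EFNB1, an ephrin (1.11, adjusted p = 0.0215). EFNB1 lost its call when any array other than E7 replicate 1 was left out, with a difference of 0.93 without E7 replicate 3 and an adjusted p between 0.0568 and 0.092 in the others, and its 3 dimmer probe sets were between -0.37 and 0.28.

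Cell division was read through genes of mitosis and of DNA replication. Of 42 mitosis genes 40 had a log2 difference under 0, against 4240 of 9013 over all genes. Of the 42, 4 fell and none rose, with a median of -0.57 against 0.04 over all genes. CENPE, a motor of the kinetochore, had 61, 39.6 and 68.3 at E10 and 164, 293 and 278 at E7 (-2.11, SE 0.40, adjusted p = 0.00849). KIF11, which pushes spindle poles apart, had 358, 205 and 325 at E10 and 523, 683 and 555 at E7 (-1.02, adjusted p = 0.0210). Another KIF11 probe set was not called. TTK, a kinase of the spindle checkpoint, was at -1.25 (adjusted p = 0.0296), and CENPL, a centromere protein, at -1.09 (adjusted p = 0.0236). AURKB (-0.99, adjusted p = 0.0195), PLK1 (-0.83, adjusted p = 0.0314) and KIF20A (-0.99, adjusted p = 0.0327) passed the p threshold below the fold required. Without E7 replicate 3, 12 genes of the list fell and the median was -0.79, and after quantile normalization 7 fell. Other settings gave fewer falls than 4. With only the 6 arrays of E10 and E7, or without E10 replicate 3, 1 gene fell. Without E7 replicate 2 or E10 replicate 2, with an offset of 16 or with eBayes without trend, 2 fell. The median stayed between -0.48 and -0.60 in these settings. This CENPE probe set kept its call with each array left out, and a dimmer one (-1.18, adjusted p = 0.0454) lost it without E7 replicate 1 (0.0954) or 2 (0.122) or E10 replicate 2 (0.119) or 3 (0.183). TTK lost its call without E7 replicate 1 or 2 or any E10 array (adjusted p between 0.0642 and 0.117), and CENPL without E7 replicate 2 or any E10 array (adjusted p between 0.0510 and 0.1). KIF11 lost its call without E7 replicate 2 (adjusted p = 0.0721), E10 replicate 2 (0.0850) or E10 replicate 3 (0.0518).

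In DNA replication, 37 of 45 genes had a difference under 0, and 16 had an unadjusted limma p under 0.05. Over all 9013 genes these counts were 4240 and 1971. None of the 45 was called by limma in its brightest probe set, with a median of -0.35. Without E7 replicate 3 there were 3 falls and 1 rise. Of 55 cytosolic ribosomal proteins 53 had a difference under 0, from -0.66 for RPL31 to 0.03, and limma called none, with 0 at an unadjusted p under 0.05. Their median was -0.29 on the deposited scale, -0.37 with the array medians made equal and -0.01 after quantile normalization. The size of this shift thus differed between scalings. In oxidative phosphorylation NDUFA10, a subunit of complex I, fell (-1.42, SE 0.25, adjusted p = 0.00537), and 45 other genes did not pass.

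Immediate-early genes, which respond within minutes to growth factors and stress, included 5 rises among 17 genes (29.4%) and no fall, with a median of 0.68. EGR1, a zinc finger factor, had 814, 982 and 606 at E10 and 114, 327 and 322 at E7 (1.78, SE 0.43, adjusted p = 0.0315). DUSP5, a phosphatase that ends MAP kinase signals, had 413, 414 and 329 at E10 and 96.7, 122 and 104 at E7 (1.84, SE 0.33, adjusted p = 0.00612). BTG2, an antiproliferative gene, had 1117, 973 and 1431 at E10 and 270, 530 and 333 at E7 (1.68, SE 0.27, adjusted p = 0.00365), and ZFP36L1, which destabilizes mRNA, had 669, 724 and 648 at E10 and 165, 162 and 259 at E7 (1.84, SE 0.26, adjusted p = 0.00161). MYC, a growth regulator, had 518, 376 and 465 at E10 and 183, 201 and 144 at E7 (1.36, adjusted p = 0.0131). The stages did not overlap for any of them, as for nearly all called probe sets. DUSP5, BTG2 and ZFP36L1 kept their calls with each array left out, MYC lost its call without E10 replicate 1 (adjusted p = 0.0691) or 3 (0.0586), and EGR1 without E7 replicate 1 (0.0905) or any E10 array (between 0.0647 and 0.104), although its other probe set kept the call (2.88, adjusted p = 0.00365). CALR, calreticulin, was the only rise among 24 chaperones of the endoplasmic reticulum, with 1614, 1352 and 1528 at E10 and 342, 363 and 248 at E7 (2.25, SE 0.25, adjusted p = 0.000327).

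**Figure D3:**
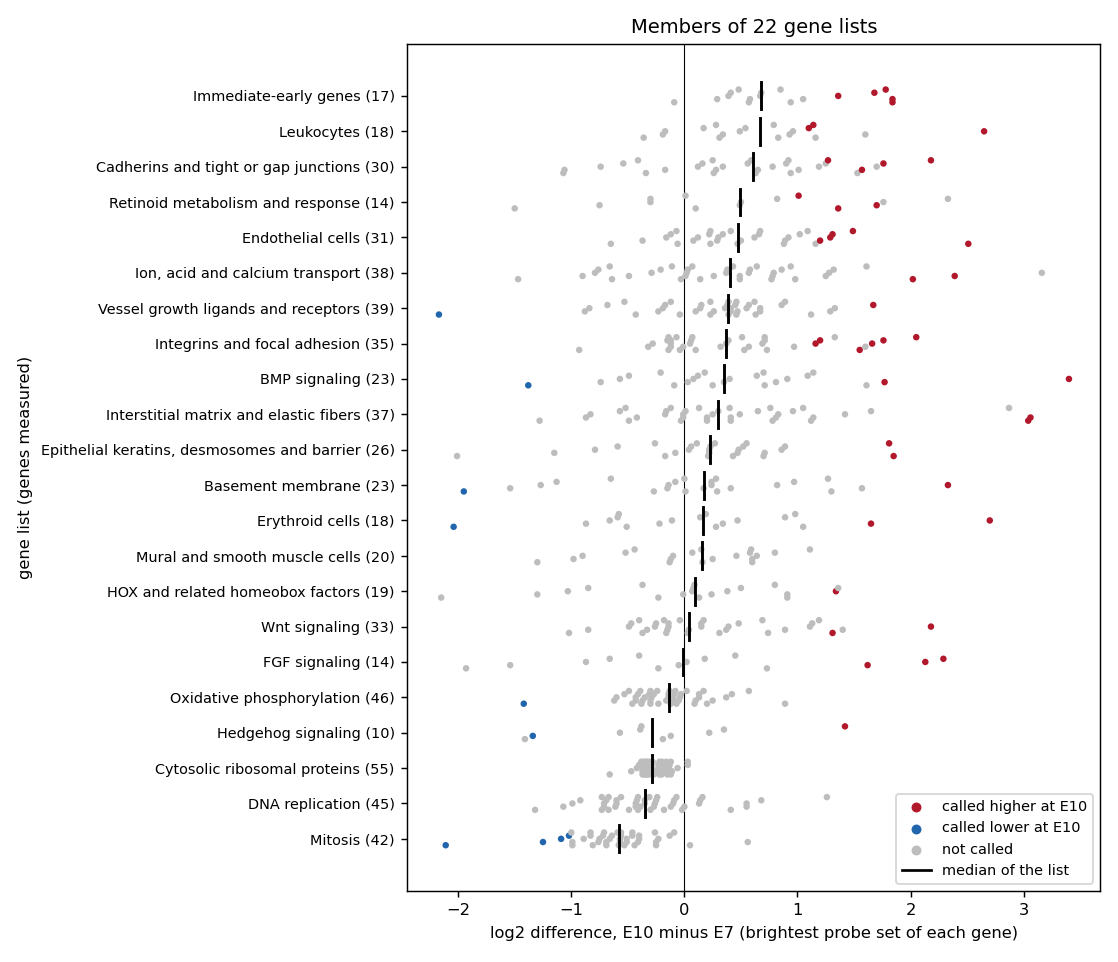
Log2 difference between E10 and E7 of each measured gene (point, brightest probe set) in 22 gene lists, with the number measured in brackets and the list median as a black line. Medians of the lists shown run from 0.68 for immediate-early genes to -0.57 for mitosis, and red and blue points are genes called higher and lower at E10. Lists not shown include 3 small ones with medians beyond this range. These were W-linked genes (3 measured, 2.33), skeletal and cardiac muscle (7, -0.73), and plasma protein, yolk sac and liver genes (6, -1.16).

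Blood and other cell types were read in the same way. Of 18 erythroid genes 2 rose and 1 fell, with a median of 0.17. HBZ, an α-type globin of the first, primitive red cells, fell to 1482, 1744 and 2758 at E10, against 6083, 11520 and 7136 at E7 (-2.04, SE 0.52, adjusted p = 0.0407), and its mean at E14 was 454. The adult-type globin HBA1 had 3999, 5059 and 4927 at E10 and 4508, 10780 and 6922 at E7 (-0.58, adjusted p = 0.261). RHAG, a gas channel of the red cell membrane, had 869, 836 and 752 at E10 and 208, 58 and 166 at E7 (2.70, SE 0.55, adjusted p = 0.0130) and a mean of 3.56 at E5. SPTB, erythroid spectrin, rose as well (1.65, adjusted p = 0.0230), while another SPTB probe set was not called. The HBZ arrays did not overlap between stages, but its call was lost whichever array was left out (adjusted p between 0.0533 and 0.143). RHAG lost its call without E10 replicate 1 (0.0561) or 3 (0.0511), though not in its other probe set (2.32, adjusted p = 0.00361), and SPTB without E7 replicate 1 or 2 or E10 replicate 1 or 3 (between 0.0553 and 0.113).

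Of 18 leukocyte genes 3 rose and none fell, with a median of 0.66. TLR15, a toll-like receptor of birds and reptiles, had 223, 237 and 83.8 at E10 and 22.6, 18.6 and 42.4 at E7 (2.65, SE 0.49, adjusted p = 0.00755), and CYBA, a subunit of the phagocyte oxidase, and CTSS, a protease of antigen presentation, were near the threshold (1.14, adjusted p = 0.0441, and 1.10, adjusted p = 0.0499). The leukocyte markers PTPRC, CSF1R, CD74, SPI1 and LCP1 summed to 643 to 851 at E10 and 352 to 488 at E7, without overlap, although none of the 4 tested was called. Another TLR15 probe set was not called. The TLR15 call was lost without E10 replicate 1 (adjusted p = 0.0535), and no gene of the list was then called. CYBA and CTSS lost theirs in most such fits (adjusted p between 0.0642 and 0.169 for CYBA, and between 0.127 and 0.138 for CTSS). None of 5 thrombocyte genes was called by limma, nor of 16 interferon and MHC genes. An unadjusted p under 0.05 was found for 0 and 3 of them, against 1971 of 9013 over all genes.

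Only 8 of 30 genes written for the neuronal list were measured, of which 2 rose and 1 fell, with a median of 0.39. Besides TUBB3, the neuronal list held NEFL, a neurofilament chain, which rose (1.43, adjusted p = 0.0450), and TH, tyrosine hydroxylase of catecholamine cells, which fell to 1.6, 9.72 and 22.9 at E10, against 91.7, 58.9 and 115 at E7 (-3.59, SE 0.87, adjusted p = 0.0316). The neuronal markers STMN2 (2.08, adjusted p = 0.124) and SNAP25 (0.50, adjusted p = 0.706) were tested and not called by limma. Of the neuronal markers ELAVL4, SYT1 and SOX10 were not tested, since at no stage did all 3 arrays reach a signal of 35, and the 5 measured markers summed to 262 to 486 at E10 and 53.9 to 365 at E7. Their part in the rise of TUBB3 was not tested. MYL1 and MYL4 were the 2 falls among 7 muscle genes, with 13.1, 13.9 and 2.58 at E10 and 57.6, 85.6 and 183 at E7 for MYL1 (-3.63, adjusted p = 0.0463), and 133, 646 and 213 at E10 and 2298, 1803 and 651 at E7 for MYL4 (-2.40, adjusted p = 0.0457). VTN, vitronectin, and TF, transferrin, were the 2 falls among 6 plasma protein genes, and TF had 600, 551 and 362 at E10 and 1160, 1218 and 1552 at E7 (-1.40, adjusted p = 0.0142). VTN was dim (-2.61, adjusted p = 0.0315). The median log2 difference was -0.73 in the muscle list and -1.16 in the plasma protein list. NEFL lost its call when any array other than E7 replicate 1 was left out (adjusted p between 0.0680 and 0.139), TH when any array other than E10 replicate 3 was (0.0547 to 0.111), MYL1 with each array left out (0.0616 to 0.181), MYL4 without E7 replicate 1 or 2 or E10 replicate 1 or 3 (0.115 to 0.173), VTN without E7 replicate 2 or 3 or E10 replicate 2 or 3 (0.0521 to 0.0763), and TF without E10 replicate 3 (0.0793).

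The levels at E5 and E14 place these differences in the course of the membrane, as a description only. The probe sets were chosen by their E10 and E7 values, to which E5 and E14 are compared here. The counts are therefore shaped by that choice, and the same counts over all probe sets tested were not made. Of the 487 probe sets that rose, 246 had a still higher mean at E14, and 8 had returned at E14 to a mean under that of E7. At E5, 242 of them had a mean under that of E7 and 4 a mean above that of E10. Genes that were highest at E10 included DAG1, with means of 119, 203, 996 and 404 at E5, E7, E10 and E14, and BMP4, with 29.8, 13.7, 115 and 62.1. Of the 119 that fell, 61 were lower still at E14 and 7 had a mean above that of E7. SST1, with means of 1115, 1213, 53.1 and 14.8 from E5 to E14, and GATA5, with 2310, 1890, 780 and 266, had their lowest mean at E14, and VEGFD was among those above their E7 mean at E14.

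Because all E10 arrays and 1 of 3 E7 arrays had a high HINTW signal, sex and stage were partly confounded in this comparison. W-linked transcripts showed the same pattern. UBE2R2L had 152, 115 and 148 at E10 and 7.17, 111 and 25.5 at E7, and SPIN1L had 78.3, 98.1 and 79.9 at E10 and 1.42, 59.7 and 5.38 at E7. HINTW itself was not called (4.42, SE 2.88, adjusted p = 0.396), since the E7 arrays lay on both sides. Of 21 tested probe sets that the GRCg7b annotation places on W, 1 rose. This was MBD2, a reader of DNA methylation, with 1298, 1342 and 1163 at E10 and 524, 484 and 527 at E7 (1.31, adjusted p = 0.00537), which did not follow HINTW.

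Birds with 2 Z chromosomes are male, and Z-linked transcripts are only partly compensated. Of 605 tested Z-linked probe sets 13 fell (2.15%) and 6 rose (0.992%), with a median of -0.21, against 90 falls and 361 rises among 13684 probe sets on the numbered chromosomes, where the median was 0.06. The Z-linked level of each array, as the median deviation from its autosomes on the log2 scale, was -0.12, -0.13 and -0.21 at E10 and 0.31, -0.10 and 0.27 at E7. The E7 array with a high HINTW signal thus had a Z-linked level like that of the E10 arrays. With the log2 HINTW signal as a covariate 7 Z-linked probe sets fell (1.16%), with a median of -0.03. On the numbered chromosomes falls were fewer as well, at 76 (0.555%), with a median of 0.06. The E10 arrays were also set against that E7 array alone, with a lone array assumed to vary like the others. The median was then -0.05 on Z and -0.02 on the numbered chromosomes. SLC1A3, a glutamate transporter, had 90.2, 77.5 and 83.4 at E10 and 406, 233 and 358 at E7 (-1.95, SE 0.24, adjusted p = 0.000754), and it fell under both alternatives (-1.80, adjusted p = 0.0020, and -1.48, adjusted p = 0.0235). UGCG, which makes glucosylceramide, had 154, 151 and 86.5 at E10 and 462, 355 and 393 at E7 (-1.67, adjusted p = 0.00464), with -1.55 (adjusted p = 0.0122) under the covariate and -1.49 (adjusted p = 0.0841) against the lone array. RFK, riboflavin kinase, had 67.9, 51.2 and 54.9 at E10 and 162, 320 and 272 at E7 (-2.07, adjusted p = 0.0161), with -2.02 (adjusted p = 0.0412) and -2.47 (adjusted p = 0.0619). HAUS1 and HAUS6, 2 parts of a complex that branches spindle microtubules, fell (-1.38, adjusted p = 0.0376, and -1.14, adjusted p = 0.0210). Under the covariate both were at -0.97, just short of the fold required (adjusted p = 0.0463 for HAUS1 and 0.0554 for HAUS6). Against the lone array both were at -0.94. These calls of SLC1A3 and UGCG held with each array left out, and a dimmer UGCG probe set (-1.27, adjusted p = 0.0309) lost its call without E7 replicate 1 (0.0945) or any E10 array (0.0774 to 0.114). RFK lost its call without E7 replicate 2 or E10 replicate 2 or 3 (adjusted p between 0.0592 and 0.0652), HAUS1 without E7 replicate 1 or any E10 array (0.0955 to 0.114), and HAUS6 without E7 replicate 3 or any E10 array (0.0518 to 0.091).

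**Figure D4:**
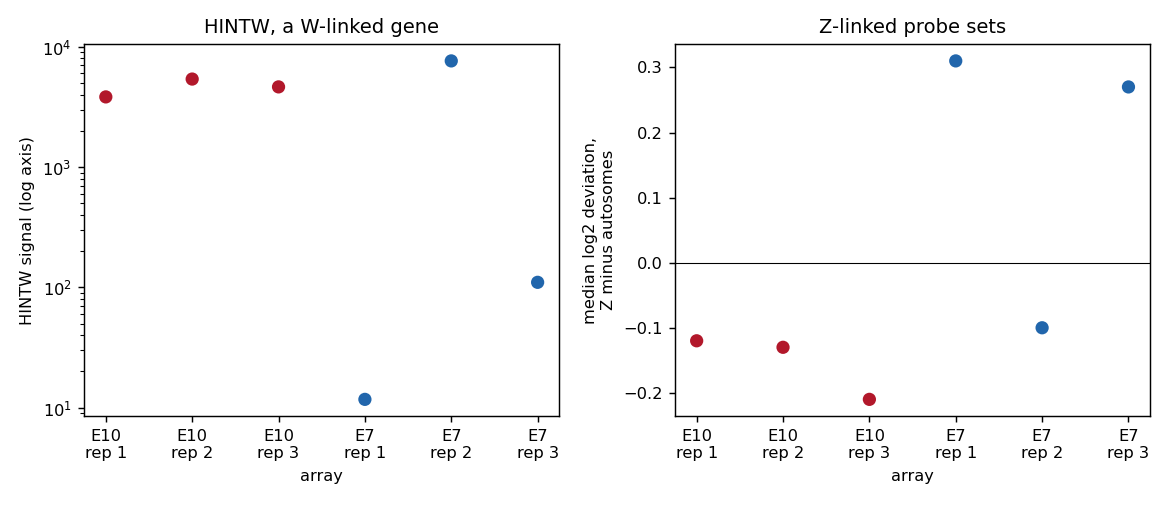
HINTW signal (left, log axis) and median log2 deviation of 605 Z-linked probe sets relative to the autosomes (right) in the 3 E10 arrays (red) and the 3 E7 arrays (blue). E7 replicate 2 lies with the E10 arrays in both panels, and E7 replicates 1 and 3 lie apart from them, with a HINTW signal of 11.7 and 110.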

How the data were processed

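Total RNA of 12 CAMs (3 each at E5, E7, E10 and E14) had been hybridized to Affymetrix chicken arrays. Values were deposited as intensity on a linear scale, produced by GCOS 1.2 according to the submitters' processing notes and scaled by the authors over each whole array, without detection calls. The table holds 38535 probe sets, 96 of them controls. Here signals were taken to log2 and fitted with limma 3.58.1 in R 4.3.3, with a mean per stage over the 12 arrays, the contrast E10 minus E7 and an intensity trend in eBayes. A probe set was tested if all 3 arrays of at least 1 stage reached a signal of 35, and called at a Benjamini-Hochberg adjusted p under 0.05 and a log2 difference over 1 in size. The study's SAM test was not run, because it rests on permuted stage labels. The 3 arrays per stage limit the precision (median SE 0.329), and 14.5% of the probe sets tested had an E10 or E7 signal under 20, where log2 differences are unsteady. The replicates are separate embryos.

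Gene symbols came from GEO's platform annotation and were updated through RefSeq gene identifiers (GRCg7b). Of 38439 probe sets, 27168 had 1 symbol, 177 several and 11094 none. The genes named are the 12 largest differences per direction (1 symbol, a mean signal of at least 100 in the higher stage, no overlap of E10 and E7 arrays), the genes of the study's own E7 to E10 selection, called members and leading members of the gene lists, and W- and Z-linked genes behind a count. The comparison, the lists and the rules were chosen with earlier results of these data known. Alternatives changed the filter, offset, floor, scaling, variance moderation, arrays fitted, replicate block, HINTW covariate, fold and arrays left out. The code was tested on simulated data. Plots were made in matplotlib 3.10.9 (Python 3.11.15).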

Additional observations from a re-analysis of the deposited data

How the results depend on the processing

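Of 22 alternatives, 17 left the 487 rises and 11 the 119 falls within 1.5 times of these counts, and 11 did so for both. No called probe set of a named gene reversed under any alternative. The lower count moved to 184 with signals under 20 set to 20, 198 after quantile normalization, 76 with only the 6 arrays of E10 and E7, and 56 with the lone E7 array of high HINTW signal. A log2 difference over 1.5 was reached by 251 and 57. Equal medians gave 337 and 141, with a median difference of -0.0185 against 0.0646 on the deposited scale. Arrays apart with a ratio of means over 2, without a model, held for 1060 and 515. Quantile normalization without E7 replicate 3, added after seeing the data, gave 462 and 206. Leaving out 1 array gave 210 to 583 higher and 48 to 182 lower, of which E10 replicates 1 and 3 gave the fewest. The replicate block gave 438 higher and 101 lower. The deviations of same-numbered E10 and E7 arrays from their stage means correlated at -0.0914, 0.0712 and 0.0657, so the numbers were not taken as pairs. Of 139 called probe sets of named genes, 54 kept the call with each array left out, and 39 in every setting. Not called were 33 of them with the HINTW covariate and 78 against the lone E7 array. With 3 arrays per stage and no detection calls, differences of dim probe sets are the least certain.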

Other observations

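A group that no list covers came from the chromosome placement of the called probe sets, which was looked at after the values were seen. On chromosomes 25 to 39, the smallest ones, 64 of 988 tested probe sets rose at E10 (6.48%) and 4 fell (0.405%), with a median log2 difference of 0.19. On chromosomes 1 to 5 it was 152 of 6438 that rose (2.36%) and 50 that fell (0.777%), with a median of 0.02. On chromosomes 6 to 10 it was 1.76% and 0.814%, and on chromosomes 11 to 24 it was 2.65% and 0.433%. The share that rose on chromosomes 25 to 39 was 5.77% after quantile normalization, 7.09% without E7 replicate 3 and 5.47% with both. It was 5.16% with the HINTW covariate, 4.55% with only the 6 arrays of E10 and E7, and 4.05% against the lone E7 array of high HINTW signal, where chromosomes 1 to 5 had 1.82%, 1.63% and 1.44%. Named genes of this group were IGSF9, SHE and CTSS of chromosome 25, OCLN of chromosome 28, ITGA3 and KRT14 of chromosome 27, CALR of chromosome 30, VDR of chromosome 34, and TGFB1 and ACTN4 of chromosome 38. Base composition, transcript length and probe position were not examined, and no explanation was tested.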
